A study of Mus musculus with 6 samples.

Results

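The early heart transcription factors are Nkx2-5, Gata4, Gata6, Tbx5, Tbx20, Hand1, Hand2, Isl1, Mef2c and Myocd, 10 genes that were chosen by name and matched to the gene name of each array spot outside the controls. All 10 were on the array, through 20 probes, and all 10 were among the 15027 genes tested. Gene expression was measured on 1-colour Agilent arrays in Brg1d/d embryos, which the labels describe as conditional knockouts of Brg1, and in Brg1fl/fl embryos, which carried the floxed allele and served as the control. Each genotype had 3 samples that the labels call biological replicates, with 1 array each. All samples, of both genotypes, were whole embryos taken at embryonic day 8.5 from mothers injected intraperitoneally with tamoxifen, so the control also had the drug. Brg1, encoded by Smarca4, is an ATPase of the SWI/SNF chromatin remodelling complexes. The sources used here give neither the Cre driver nor the deleted exons, and they do not say if embryos were pooled.

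These factors specify heart progenitors in the lateral mesoderm and then act together on the promoters of contractile genes. Nkx2-5, Gata4 and Tbx5 are the classical combination of the cardiac crescent and the linear heart tube. Hand1 and Hand2 mark parts of the forming ventricles, Isl1 and Mef2c are used in the second heart field, and Myocd is a coactivator that binds serum response factor. Several of them are also used outside the heart, among them Gata4 and Gata6 in visceral endoderm and Hand1 in trophoblast and extraembryonic mesoderm.

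Of the 10 factors, Hand1 was higher in Brg1d/d embryos, Tbx5 and Myocd were lower, and 7 did not pass the test. The test was limma with Benjamini-Hochberg adjustment over all 27854 probes kept and a threshold of 0.05, each gene being read through its brightest probe. Across all genes 10.6% passed, 5.25% as higher and 5.31% as lower in Brg1d/d. The median log2 difference, Brg1d/d minus Brg1fl/fl, was -0.04 over the 10 factors and 0.07 over all genes. The values of the 2 genotypes did not overlap for 6 of the 10 factors (Tbx5, Gata4, Hand1, Hand2, Mef2c and Myocd), against 41.9% of all genes. Over single probes, 3 of 18 tested passed, where 9.37% of all probes did, and 10 of 18 showed no overlap, where 39.3% of all probes did. The remaining probes, Tbx20 probe 4 and Mef2c probe 2, were too dim to test.

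The arrays differed in ways that go with genotype. The 3 Brg1fl/fl arrays shared a slide and each Brg1d/d array was on a slide of its own, so slide and genotype cannot be told apart. Brg1d/d 2 was scanned on the same day as the 3 controls, and Brg1d/d 1 and 3 each on another day. The brightest spike-in control read 12934 and 6905 units on Brg1d/d 1 and 3, against 231544 units on Brg1d/d 2 and 208550 to 241121 units on the Brg1fl/fl arrays. No label gives a labelling batch, and the term is used here for this split of the arrays by spike-in signal, Brg1d/d 1 and 3 against the other arrays. Most results below are therefore also given as a same-day difference, which is Brg1d/d 2 minus the mean of the 3 controls and has no replicate of its own. Spots well above background made up 68.7% to 73.5% of spots on Brg1d/d arrays and 68.5% to 69.3% of those on Brg1fl/fl arrays. The 75th percentile of the signal was 1627 and 1582 units on Brg1d/d 1 and 3. It was 970 units on Brg1d/d 2 and 958 to 1010 units on the Brg1fl/fl arrays. Values given in units are not scaled for this. At its brightest probe the targeted gene Smarca4 read 1.49, 2.65 and 2.0 in Brg1d/d 1, 2 and 3, against 5.28, 4.45 and 4.50 in Brg1fl/fl 1, 2 and 3, a log2 difference of -2.69 ± 0.36 (SE). All 3 Smarca4 probes passed in limma, the largest adjusted p being 0.0129. With 1 array left out it was at most 0.0691.

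Levels are log2 processed signal minus the 75th percentile of the array, so 0 is the brightness of a spot at that percentile. Probes differ in how they bind, and levels are therefore compared between arrays at 1 probe and never between genes. A whole embryo was measured, so fewer cells of a type and less RNA per cell cannot be told apart. Differences below run in the order Brg1d/d minus Brg1fl/fl, and values run from replicate 1 to replicate 3.

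The sequences of the probes matter for both Tbx5 and Hand2. The dim Tbx5 probe and both Hand2 probes have 60 bases each but are annotated to a much longer stretch of the mm7 build, as is the case for a probe that crosses an intron. No exon map of mm7 was used. Tbx5 probe 2 is annotated to chr5:119105369-119116931, Hand2 probe 1 to chr8:55705289-55706648 and Hand2 probe 2 to chr8:55705252-55706611. Capitals mark the 23 bases that the Hand2 probes share, so that their readings are not independent sequences.
Tbx5 probe 2: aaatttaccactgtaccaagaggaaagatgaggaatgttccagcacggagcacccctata
Hand2 probe 1: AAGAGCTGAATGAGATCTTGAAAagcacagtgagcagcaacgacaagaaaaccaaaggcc
Hand2 probe 2: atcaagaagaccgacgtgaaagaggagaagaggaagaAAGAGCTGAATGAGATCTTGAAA

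Promoter windows of 300 bases, from 250 before to 50 after a start site, were taken from RefSeq (GRCm38.p6) and matched 5 of the 10 factors by symbol: Nkx2-5, Tbx20, Hand2, Mef2c and Isl1. Neither gene of the windows printed here passed the test. They are Nkx2-5, whose genotypes overlapped, and Hand2, whose genotypes did not overlap at either probe. They lie at chr17:26841516-26841815 on the minus strand and chr8:57320733-57321032 on the plus strand. Capitals mark matches to 2 motifs on either strand, the E-box CANNTG, the letters that Hand1 and other basic helix-loop-helix factors bind, and the letters AGATAA, which zinc finger factors such as Gata4 bind.
Nkx2-5 promoter: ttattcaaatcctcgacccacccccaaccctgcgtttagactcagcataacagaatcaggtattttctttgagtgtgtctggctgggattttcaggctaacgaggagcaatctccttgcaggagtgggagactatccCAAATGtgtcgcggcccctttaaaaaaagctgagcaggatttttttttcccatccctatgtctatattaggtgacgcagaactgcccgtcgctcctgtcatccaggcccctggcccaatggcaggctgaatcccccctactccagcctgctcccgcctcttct
Hand2 promoter: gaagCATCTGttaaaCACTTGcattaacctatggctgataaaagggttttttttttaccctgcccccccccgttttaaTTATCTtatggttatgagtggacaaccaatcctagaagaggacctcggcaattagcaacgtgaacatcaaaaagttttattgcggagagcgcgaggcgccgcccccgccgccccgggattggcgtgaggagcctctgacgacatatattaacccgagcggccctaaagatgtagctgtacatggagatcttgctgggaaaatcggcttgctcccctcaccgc
The Nkx2-5 window held 1 E-box and no AGATAA, and the Hand2 window held 2 E-boxes and 1 AGATAA. Of 32851 such windows, 72.3% held an E-box and 11.2% held AGATAA, so an E-box is the usual case. A match of letters describes the window and is not a measured binding site.

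Nkx2-5, the homeodomain factor that marks cardiac progenitors, did not pass. Its single probe, at chr17:25023452-25023511, read 1.41, 1.28 and 1.51 in Brg1d/d and 1.62, 1.30 and 1.25 in Brg1fl/fl. The genotypes overlapped, with the highest value in a control. The difference was 0.01 ± 0.17 (SE, limma adjusted p = 0.966), with a 95% interval from -0.40 to 0.42, and changes larger than 1.34-fold lay outside that interval. The same-day difference was -0.11.

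Gata4, a zinc finger factor that works with Nkx2-5 and Tbx5, had higher readings in Brg1d/d at both of its probes, and neither passed. Probe 1 is annotated to only 22 bases of the mm7 build, at chr14:58062775-58062796. It read -2.49, -2.65 and -2.54 in Brg1d/d and -4.21, -3.68 and -3.09 in Brg1fl/fl, without overlap. The Brg1d/d arrays lay close together while the controls spread over more than a unit. The difference was 1.09 ± 0.29 (SE), which is 2.13-fold (limma adjusted p = 0.0645), and 1.0 on the same day. With normexp background correction it was 0.61. Without Brg1fl/fl 3 it was 1.38 and passed, with a limma adjusted p of 0.0348.

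Gata4 probe 2 was printed at 10 spots and read -2.58, -4.17 and -2.49 in Brg1d/d, against -5.23, -4.49 and -4.18 in Brg1fl/fl. Brg1d/d 2 lay beside the highest control, and Brg1d/d 1 and 3, the arrays with the low spike-in signal, lay well above all controls. The difference was 1.55 ± 0.51 (SE, limma adjusted p = 0.10), and the same-day difference was 0.46. With normexp background correction the difference was 0.76. Without Brg1d/d 2 it was 2.10, with a limma adjusted p of 0.0214. Replicate spots of this probe had a log2 SD of 0.073 to 0.179 on Brg1d/d arrays and 0.119 to 0.164 on Brg1fl/fl arrays, far less than the gap between Brg1d/d 2 and the other Brg1d/d arrays.

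Gata6, the related factor with roles in heart and visceral endoderm, did not pass at any of 3 probes. Its brightest probe read 2.09, 2.40 and 2.20 in Brg1d/d and 2.15, 2.03 and 2.17 in Brg1fl/fl. The genotypes overlapped, with a difference of 0.11 ± 0.15 (SE, limma adjusted p = 0.632), a 95% interval from -0.26 to 0.49 and a same-day difference of 0.28. Probe 2 differed by 0.04 and the dim probe 3 by 0.55, with limma adjusted p of 0.909 and 0.192. Probe 3 has a GC content of 80.0%, and its genotypes overlapped too, Brg1d/d 1 lying below Brg1fl/fl 3.

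Tbx5, the T-box factor of the first heart field and the forelimb, was lower in Brg1d/d at its brighter probe. Probe 1, at chr5:119118064-119118123, read -2.31, -1.51 and -1.95 in Brg1d/d and -0.08, -0.82 and -0.76 in Brg1fl/fl. Every Brg1d/d array lay below every control, and Brg1d/d 2 was the nearest to them. The group means were -1.92 ± 0.40 in Brg1d/d and -0.55 ± 0.41 in Brg1fl/fl (SD, n = 3 each). Tbx5 fell by 1.37 ± 0.29 (SE) on the log2 scale, which is 2.59-fold (limma adjusted p = 0.0377). The same-day difference was -0.96.

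Tbx5 probe 2, the probe whose sequence is given above, did not follow. It read -5.22, -5.31 and -5.50 in Brg1d/d and -5.15, -5.44 and -5.37 in Brg1fl/fl, and the genotypes overlapped. The difference was -0.03 ± 0.16 (SE, limma adjusted p = 0.925), with a 95% interval from -0.42 to 0.37. A fall of the size seen at probe 1 lay outside that interval, which describes the dim signal of probe 2 under the main scaling. With quantile scaling the difference was -0.36, and with normexp background correction it was -0.16. The signal was dim, at 24.5 to 43.7 units in Brg1d/d and 23.2 to 28.2 units in Brg1fl/fl, although well above background on all 6 arrays. The probes of Tbx5 thus gave different readings, and the fall rests on probe 1. At this brightness probe 2 cannot decide if the fall is shared.

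Tbx20, a T-box factor of the myocardium, did not pass at any of 3 tested probes. Its brightest probe, at chr9:24605717-24605776, read -1.62, -1.51 and -1.32 in Brg1d/d and -1.59, -1.27 and -1.28 in Brg1fl/fl. The genotypes overlapped, and the difference was -0.10 ± 0.17 (SE, limma adjusted p = 0.70), with a 95% interval from -0.51 to 0.31. Probe 2 differed by 0.09 ± 0.18 (SE) and also overlapped. Probe 3 lay without overlap at -4.90 to -4.81 in Brg1d/d and -5.30 to -5.14 in Brg1fl/fl, a difference of 0.35 ± 0.14 (SE, limma adjusted p = 0.144). That difference was 0.0015 with normexp background correction and 0.074 with quantile scaling.

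**Figure D1:**
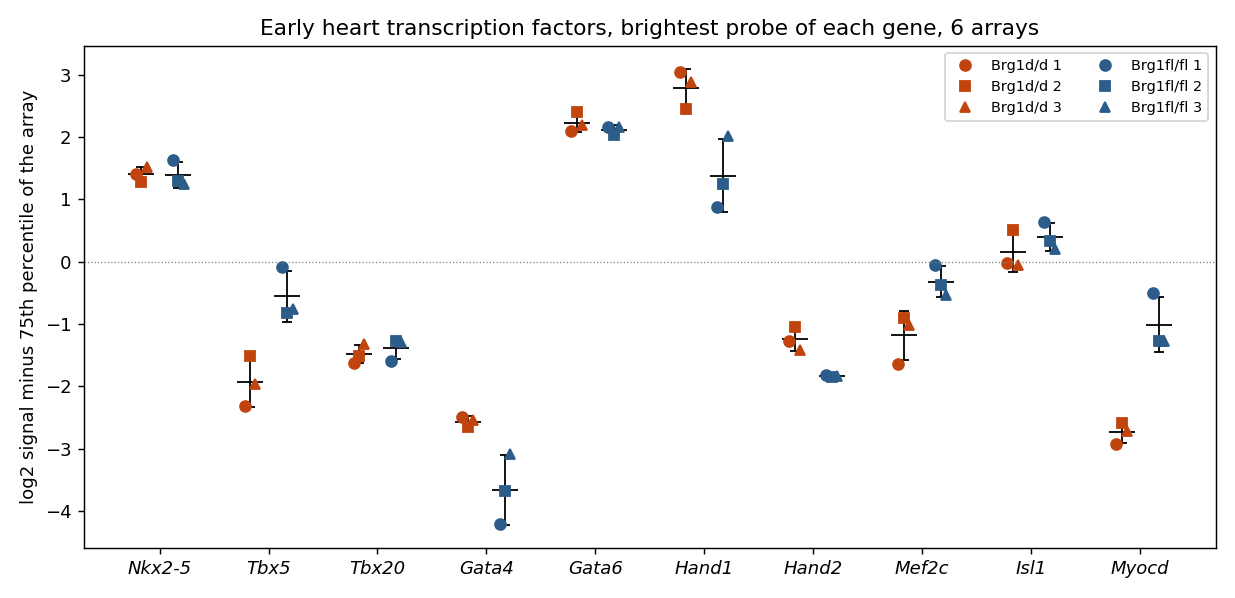
Level of each early heart transcription factor at its brightest probe, as log2 signal minus the 75th percentile of the array, on 3 Brg1d/d arrays (orange, left) and 3 Brg1fl/fl arrays (blue, right). Black bars are the mean and SD, n = 3 each. Hand1 stands higher in Brg1d/d, Tbx5 and Myocd stand lower, and Nkx2-5, Gata6, Tbx20 and Isl1 overlap. Only arrays within a gene can be compared, since probes differ in brightness.

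Hand1, a basic helix-loop-helix factor of the outer left ventricle that is also used in trophoblast and yolk sac mesoderm, was higher in Brg1d/d. Its only probe, at chr11:57910385-57910444, read 3.04, 2.46 and 2.89 in Brg1d/d and 0.87, 1.24 and 2.02 in Brg1fl/fl. Every Brg1d/d array lay above every control, and the nearest values were those of Brg1d/d 2 and Brg1fl/fl 3. In units of processed signal, not scaled for array brightness, these were 13351, 5329 and 11720 in Brg1d/d, against 1832, 2393 and 3885 in Brg1fl/fl. The group means were 2.79 ± 0.30 in Brg1d/d and 1.38 ± 0.58 in Brg1fl/fl (SD, n = 3 each). Hand1 rose by 1.41 ± 0.33 (SE) on the log2 scale, which is 2.67-fold (limma adjusted p = 0.0463). The same-day difference was 1.08.

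Hand2, the related factor of the right ventricle and second heart field, read higher in all 3 Brg1d/d arrays at both probes, and neither passed. Probe 1 read -1.27, -1.05 and -1.41 in Brg1d/d and -1.81, -1.85 and -1.83 in Brg1fl/fl. The controls lay within a few hundredths of each other and did not overlap with Brg1d/d. The difference was 0.59 ± 0.16 (SE), which is 1.5-fold (limma adjusted p = 0.0667), and 0.78 on the same day. Probe 2, which shares 23 bases with probe 1, gave 0.45 ± 0.17 (SE, limma adjusted p = 0.129), again without overlap, and a same-day difference of 0.69.

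Isl1, a LIM homeodomain factor of the second heart field that motor neurons also use, did not pass. Its probe, at chr13:113508612-113508671 and printed at 10 spots, read -0.01, 0.52 and -0.05 in Brg1d/d and 0.64, 0.34 and 0.20 in Brg1fl/fl. Brg1d/d 2 lay among the controls and Brg1d/d 1 and 3 below them. The difference was -0.24 ± 0.22 (SE, limma adjusted p = 0.468), with a 95% interval from -0.77 to 0.29. The same-day difference had the opposite sign, at 0.12. Replicate spots had a log2 SD of 0.043 to 0.065 on Brg1d/d arrays and 0.047 to 0.056 on Brg1fl/fl arrays, less than the spread between arrays.

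Mef2c, a MADS-box factor that second heart field progenitors and myocardium use, read lower in Brg1d/d and did not pass. Its testable probe, at chr13:80738124-80738183, read -1.63, -0.90 and -1.01 in Brg1d/d and -0.05, -0.37 and -0.53 in Brg1fl/fl, without overlap. The difference was -0.86 ± 0.25 (SE), which is 1.82-fold lower (limma adjusted p = 0.0774). The same-day difference was -0.58.

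Myocd, the coactivator of serum response factor in cardiac and smooth muscle, was lower in Brg1d/d and, read at the brightest probe of each gene, had the largest difference of the 10 factors. With the mean of each gene's probes it was -1.19, smaller than Hand1 at 1.41 and Gata4 at 1.32. Probe 1, at chr11:65258470-65258529, read -2.91, -2.58 and -2.71 in Brg1d/d and -0.50, -1.27 and -1.26 in Brg1fl/fl. Every Brg1d/d array lay more than a unit below every control. The group means were -2.74 ± 0.17 in Brg1d/d and -1.01 ± 0.44 in Brg1fl/fl (SD, n = 3 each). Myocd fell by 1.72 ± 0.25 (SE) on the log2 scale, which is 3.30-fold (limma adjusted p = 0.0143), and the value on the same day was -1.57.

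Myocd probe 2, at chr11:65260346-65260405, is annotated to another transcript record of the gene and did not pass. It read -4.33, -5.18 and -4.39 in Brg1d/d and -3.63, -4.28 and -4.02 in Brg1fl/fl, also without overlap. The difference was -0.65 ± 0.29 (SE, limma adjusted p = 0.179). Here Brg1d/d 2 was the lowest array, and the same-day difference of -1.20 was larger than the difference over all arrays.

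The calls for Hand1, Tbx5 and Myocd depended on the arrays that were in the fit. With the labelling batch or the scan day as a block, none of the 3 passed in limma, at adjusted p of 0.405, 0.359 and 0.175 for the batch and 0.563, 0.502 and 0.348 for the day. Under either block the estimate rests on Brg1d/d 2 alone and equals the same-day difference, 1.08 for Hand1, -0.96 for Tbx5 and -1.57 for Myocd. Such a fit has little power for any gene, not only for these factors. Leaving out 1 array at a time gave a limma adjusted p of 0.0269 to 0.164 for Hand1, 0.0265 to 0.129 for Tbx5 and 0.0083 to 0.0732 for Myocd, with the direction kept each time. None of the 3 passed without Brg1d/d 1, without Brg1d/d 3 or without Brg1fl/fl 2. Over all genes the calls also dropped in these fits, to 322, 328 and 306, from 1587 with all arrays. Without Brg1fl/fl 1 Tbx5 and Myocd still passed. Without Brg1fl/fl 3, Hand1 and Myocd passed, Tbx5 did not, and Gata4 joined them.

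**Figure D2:**
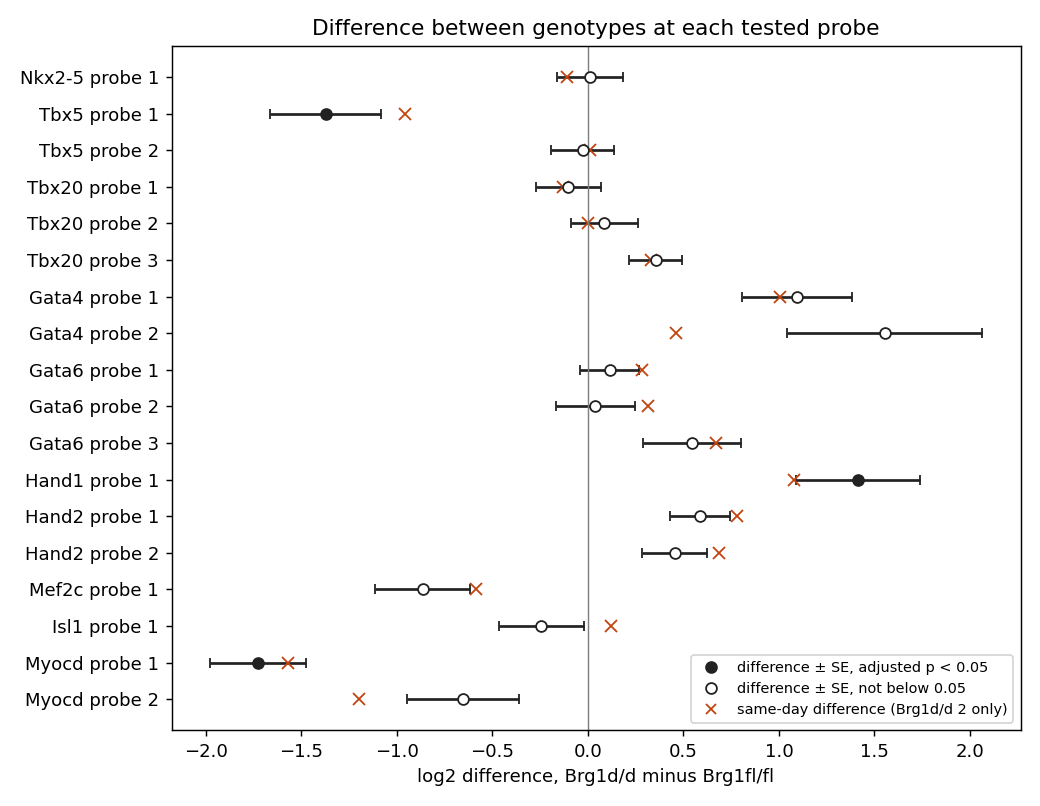
Log2 difference, Brg1d/d minus Brg1fl/fl, at each of the 18 tested probes, with its SE (circles, filled where the limma adjusted p was below 0.05), and the same-day difference, Brg1d/d 2 minus the mean of 3 controls (crosses). Filled circles are Tbx5 probe 1, Hand1 and Myocd probe 1. The crosses keep the sign of the difference at these. The sign turns for Nkx2-5 (-0.11), Tbx5 probe 2 (0.011) and Isl1 (0.12), while Gata4 probe 2 keeps its sign and moves to 0.46.

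Related factors were compared within each array, by taking the level of one minus that of the other and setting the genotypes against each other in a two-sided exact permutation test. With 3 against 3 arrays this exact test cannot go below p = 0.1, so none of the 3 pairs could pass. Tbx5 minus Tbx20 was -0.69, -0.0012 and -0.63 in Brg1d/d and 1.51, 0.45 and 0.52 in Brg1fl/fl, without overlap. The change in that gap was -1.27 (exact permutation p = 0.1, adjusted over the 3 pairs 0.15). Gata4 minus Gata6 was higher by 0.98 in Brg1d/d without overlap (exact permutation p = 0.1, adjusted 0.15), and by 0.51 with normexp. Hand1 minus Hand2 was higher by 0.83 but overlapped (exact permutation p = 0.2, adjusted 0.2), and the test could not decide if the Hand genes differed.

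The genes with the profile most like Myocd and Tbx5 were sought among 15018 genes, by the root mean square distance between profiles over 6 arrays, each centred on its own mean. For Myocd these were Spock3 at 0.0574, Fam13c at 0.0804 and Tmem132c at 0.0820. For Tbx5 they were Eif4e3 at 0.105, Pde5a at 0.107 and Cdh2 at 0.113, the last encoding the N-cadherin of myocardium and neural tube. Among the factors themselves the closest pairs were Nkx2-5 with Gata6 at 0.193, Tbx20 with Gata6 at 0.203, Gata4 with Hand1 at 0.212 and Tbx5 with Myocd at 0.225. The distance is not scaled to the size of a change, so factors that varied little lie close whatever their pattern. The closeness of Nkx2-5, Tbx20 and Gata6 therefore does not show that they moved together. These distances describe 6 arrays that share batches.

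The genes that these factors are known to activate in mouse heart and smooth muscle showed larger differences than the factors. This list, like the other lists here, was chosen with earlier results of these data known, so its counts are no independent test. Of 35 target genes tested, 26 were lower in Brg1d/d and 0 higher, against 5.31% and 5.25% of all genes, and 32 did not overlap, against 41.9% of all genes. With probes well above background on all 6 arrays alone, 25 were lower. Their median log2 difference was -3.00, against -0.04 for the factors and 0.07 for all genes, and the same-day median was -3.54. Taken without sign, the median difference of the factors, which went both ways, was 0.72. By limma with Benjamini-Hochberg adjustment, 17 were lower with the labelling batch as a block and 0 with the scan day as a block, where 30 had an unadjusted p below 0.05.

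Myh7, a ventricular myosin heavy chain, read -2.46, -2.46 and -2.31 in Brg1d/d and 6.29, 5.88 and 5.61 in Brg1fl/fl. It fell by 8.34 ± 0.21 (SE) on the log2 scale, which is 324-fold (limma adjusted p = 8.1e-05). Myh6, a cardiac myosin heavy chain and a target of Gata4, Tbx5 and Mef2c, fell by 6.89. Myl2, a ventricular light chain, fell by 6.58, and Mybpc3, a thick filament protein, by 6.17. Nppa, the natriuretic peptide gene that Nkx2-5, Gata4 and Tbx5 activate together and that is named through the list of heart muscle markers, read -3.58, -5.26 and -3.34 in Brg1d/d and 1.60, 1.30 and 0.12 in Brg1fl/fl, and it fell by 5.07. The genotypes lay several units apart at each of these genes.

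Other targets were picked for their known regulator after their values were seen. Gja5, a connexin that Tbx5 activates, fell by 2.92 ± 0.31 (SE), and Cnn1, the calponin gene of smooth muscle that Myocd activates, fell by 2.0 ± 0.23 (SE). Among smooth muscle targets Acta2 differed by -0.48, Tagln by -0.87 and Myh11 by -0.59, and none of these passed in limma, at adjusted p of 0.124, 0.0744 and 0.359. Of the other targets, Gja1, Slc8a1, Kcnh2, Cacna1c, Hcn4 and Corin did not pass, and Pln was not well above background on any array.

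Among 48 other regulators of the heart fields, 5 were higher in Brg1d/d and 3 lower in limma, against 5.25% and 5.31% of all genes, and the median difference was 0.20. The share of lower genes was near that background, and 4 were higher where only probes well above background on all 6 arrays were tested. Mesp1, which marks the earliest cardiac mesoderm, read -1.51, -1.73 and -0.94 in Brg1d/d and -2.79, -4.41 and -2.95 in Brg1fl/fl, and it rose by 1.99 ± 0.46 (SE). Shox2, a homeobox factor of the sinus venosus, was well above background on all 3 Brg1d/d arrays and on none of Brg1fl/fl, so it was tested only through the genotype where it is high. Set against the lowest signal well above background on each control array, it was 2.18-fold higher in Brg1d/d. Ankrd1, a cofactor gene that cardiac muscle expresses, fell by 1.63, and Nr2f2, an orphan nuclear receptor of the atria and veins, fell by 1.37. The remaining genes that passed were Msx1, Sall4 and Prdm1 among those higher and Mef2a, a relative of Mef2c, among those lower by 0.81, and they were named after their values were seen.

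Among 34 tested signals that induce the heart or act in the second heart field, 2 were higher in Brg1d/d and 3 lower in limma, with a median difference of -0.28, set against the same shares of all genes. Dkk1, a secreted Wnt inhibitor, rose by 1.18 ± 0.17 (SE), and Bmp4, a ligand upstream of several of the factors, rose by 1.13 ± 0.19 (SE). Wnt3a fell by 1.71, Wnt2, a Wnt ligand of the early heart and its inflow, by 1.60, and the receptor gene Notch1 by 1.37. The counts in both lists were small: with the labelling batch as a block, 1 of the other regulators and 0 of the signals passed in limma (7 signals at an unadjusted p below 0.05). With 1 array left out, 1 to 10 of the regulators and 0 to 8 of the signals passed, and both counts were lowest or near it, at 0 or 1, without Brg1d/d 1, Brg1d/d 3 or Brg1fl/fl 2. Without Brg1fl/fl 3 they were 3 and 3.

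**Figure D3:**
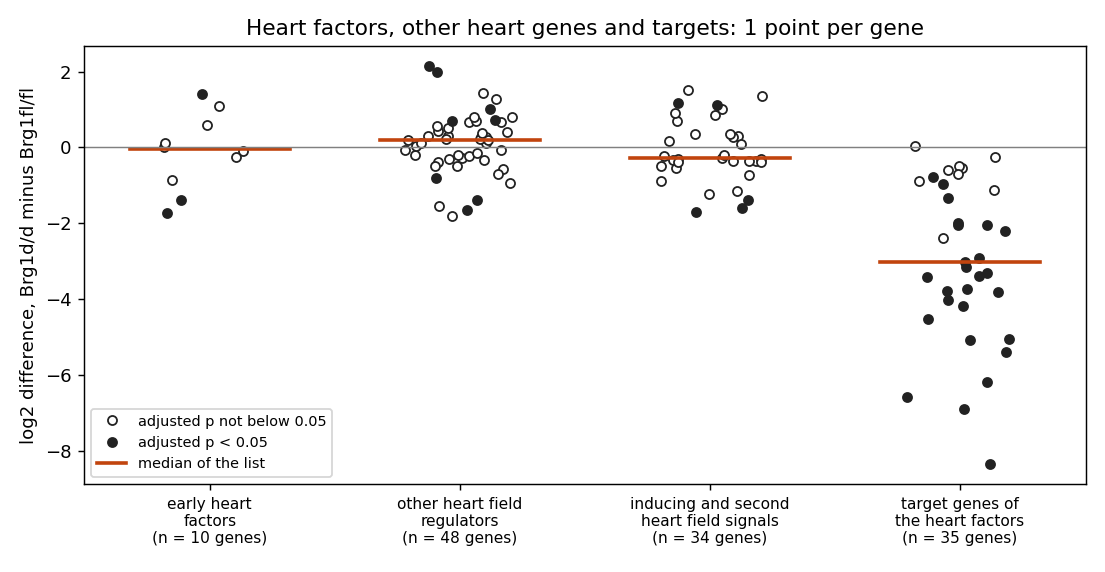
Log2 difference, Brg1d/d minus Brg1fl/fl, with 1 point per gene for the 10 early heart factors, 48 other heart field regulators, 34 signals and 35 target genes, filled where the limma adjusted p was below 0.05. Red bars are medians, at -0.04, 0.20, -0.28 and -3.00. The factors lie on both sides of 0, and the targets lie almost all below it. All lists were chosen with earlier results of these data known.

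Markers of other tissues in a whole embryo that use some of the factors were also read. Of 9 trophoblast markers tested, 4 were higher in Brg1d/d (Elf5, Eomes, Tfap2c and Ascl2, by 2.36 to 3.23) and 1, Krt7, named after its value was seen, was lower. Of all genes 5.25% were higher and 5.31% lower, and these shares also apply to the marker lists that follow. The log2 of the summed signal of the 9 markers was 8.15 to 8.26 in Brg1d/d and 7.43 to 7.94 in Brg1fl/fl. Of that sum, 85.0% to 93.1% came from Krt8 and Krt18, keratins that other epithelia also express and that did not pass. Without them, a split made after the values were seen, the sum was 4.29 to 4.92 in Brg1d/d and 4.13 to 4.69 in Brg1fl/fl, and it overlapped. The placental marker Tpbpa was not well above background on any array. With 1 array left out, 1 to 5 of the markers passed, the fewest without Brg1fl/fl 2 and 2 without Brg1d/d 1. With the labelling batch as a block 1 passed in limma, and with the scan day 0 (6 at an unadjusted p below 0.05). The part of trophoblast in the Hand1 result was not tested. Of 7 markers of extraembryonic mesoderm, another tissue that uses Hand1, Bmp4 was higher and Postn lower, and the summed level was 6.35 to 6.53 in Brg1d/d and 6.40 to 6.74 in Brg1fl/fl. Igf2 alone made up 72.5% to 79.9% of that sum, which therefore says little of the other markers.

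Of 16 markers of visceral and yolk sac endoderm, a tissue that uses Gata4 and Gata6, Sox17 alone passed in limma. That share is near the 5.25% of all genes that were higher. Sox17 rose by 1.01 ± 0.18 (SE), with a limma adjusted p of 0.0241 to 0.106 when 1 array was left out. The summed level was 9.10 to 9.36 in Brg1d/d, against 7.08 in Brg1fl/fl 1 and 9.14 and 9.28 in Brg1fl/fl 2 and 3. Brg1fl/fl 1 lay below the mean of the other controls for 16 of 16 of these markers. It was also the lowest control at both Gata4 probes and at Hand1. In the trophoblast sum it was the lowest control, but without Krt8 and Krt18 it was the highest (4.69, against 4.25 and 4.13). It lay below the mean of the other controls for 4 of 9 trophoblast markers. At Gata6 it was the lowest control only at the dim probe 3, and at probe 1 it read 2.15, against 2.03 and 2.17 in Brg1fl/fl 2 and 3. Without Brg1fl/fl 1 Hand1 was 1.16 higher and did not pass (limma adjusted p = 0.0585). Gata4 was then 0.82 higher at probe 1 and 1.25 higher at probe 2, and neither passed. Without Brg1fl/fl 1 the median difference of the endoderm markers was 0.12, where it was 0.84 with all arrays, and 1 was higher and 3 lower in limma. The part of endoderm in the Gata4 values was not tested.

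Markers of working heart muscle, all 11 of them also among the target genes above, were lower in Brg1d/d like Tbx5 and Myocd. With the labelling batch as a block 10 were lower, and with the scan day 0, where all 11 had an unadjusted p below 0.05 in limma. For these 11 the log2 of the summed signal was 3.39 to 4.01 in Brg1d/d and 7.25 to 7.77 in Brg1fl/fl. Of 12 endothelial markers 4 were lower, of 10 primitive erythroid markers 2, and of 9 somite markers 3, against 5.31% of all genes. Both erythroid markers and 1 of the somite markers were tested only through the controls, where they are high. With probes well above background on all 6 arrays alone, the counts in limma were 4, 0 (1 at an unadjusted p below 0.05) and 2. Without Brg1d/d 3 they were 2, 0 and 0, without Brg1d/d 1 they were 2, 0 and 1, and without Brg1fl/fl 2 they were 2, 0 and 1. With the labelling batch as a block they were 1, 0 and 0 (6, 2 and 3 at an unadjusted p below 0.05), and with the scan day 0 each (5, 2 and 2). Of 10 neural crest markers 0 passed in limma, and 4 had an unadjusted p below 0.05. The one with the smallest p was Dlx2, with a difference of 2.21 and a limma adjusted p of 0.0605. Brg1fl/fl 1 was also below the mean of the other controls for 10 of 10 erythroid markers, 9 of which were lower in Brg1d/d when it was left out, and its somite sum of 4.19 stood above 2.71 and 2.94 in the other controls. For 7 of the 10 factors Brg1fl/fl 1 was above the mean of the other controls.

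**Figure D4:**
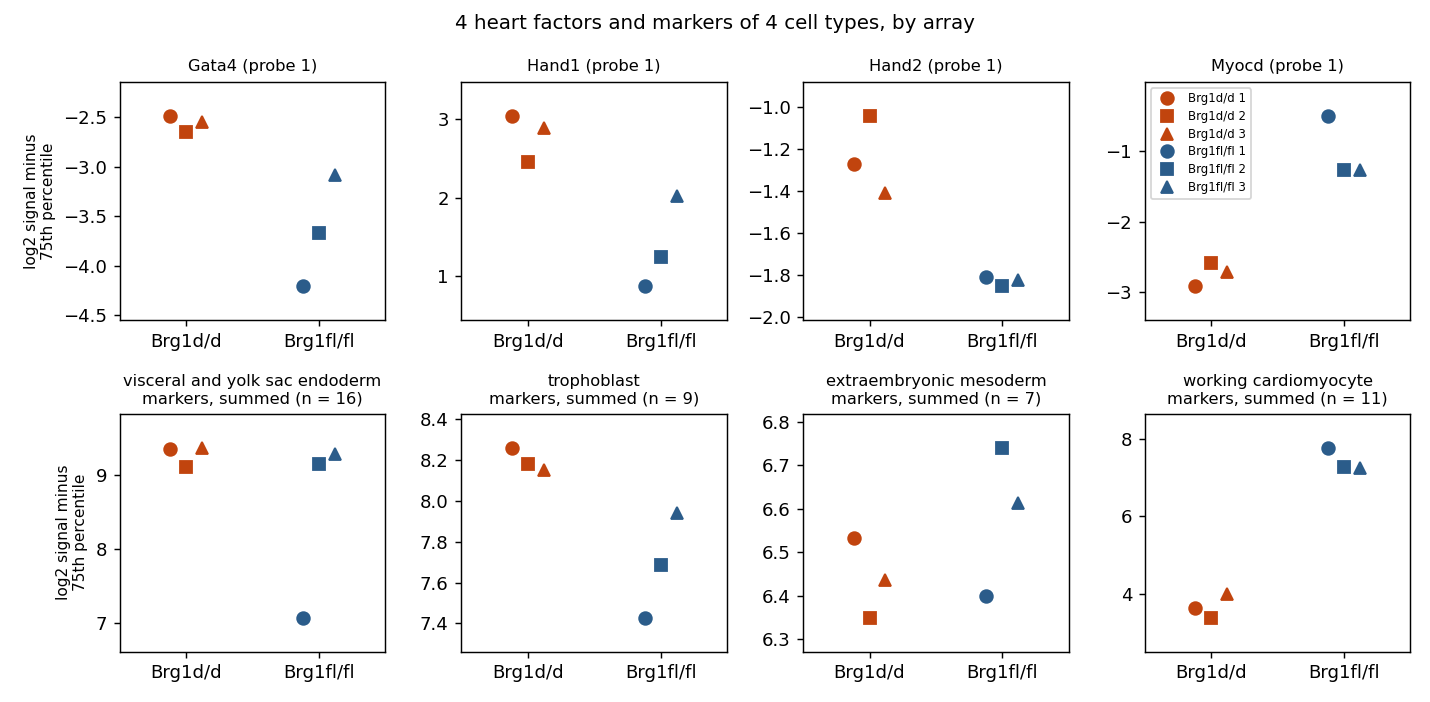
Upper panels: level of Gata4, Hand1, Hand2 and Myocd at probe 1, as log2 signal minus the 75th percentile of the array, by array. Lower panels: log2 of the summed signal of markers of yolk sac endoderm, trophoblast, extraembryonic mesoderm and working cardiomyocytes on the same scale, with Brg1d/d left of Brg1fl/fl. Cardiomyocyte sums do not overlap between genotypes, the trophoblast sum is 85.0% to 93.1% Krt8 and Krt18, and the lowest endoderm sum, 7.08, belongs to Brg1fl/fl 1.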

How the data were processed

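RNA of 6 whole mouse embryo samples was labelled with Cy3 for 1-colour Agilent arrays, per the labels' protocols. The authors' scanner files give the intensity of each spot, processed by Agilent Feature Extraction 9.5 per the submitters' processing notes. Per the file headers, flags (unit: other) mark outlier spots and spots clearly brighter than background. Intensity in the deposited series table was the processed signal again, equal at 100% of spots (relative tolerance 0.0001).

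Control spots and 53 to 83 outlier spots per array were left out. The log2 of the processed signal minus the array's 75th percentile was used, and replicate spots were averaged. A probe was kept, as were 27854 of 41174, where every array of 1 genotype or both had it well above background. Coordinates are those of the array (mm7). Names came from the reference table (GRCm38.p6), through the accession for 22951 probes, the symbol for 6659 and a synonym for 3109, and 8455 kept the array's name.

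Genotypes were compared with limma 3.58.1 under R 4.3.3, by a two-sided moderated test (lmFit, eBayes) with Benjamini-Hochberg adjusted p-values over all kept probes. Python 3.11.15 and matplotlib 3.10.9 were used for tables and plots. The members and the 3 lists of heart genes and 8 lists of markers were chosen with earlier results of these data known. Named were all factors, Smarca4, up to 4 genes per list with the largest difference among those that passed, or else the gene with the smallest p, and the 3 genes most like each factor that passed. Those for Hand1 are not reported here. The fit was tested on simulated data without slide, day or spike-in effects, so that test says nothing of the batches in these arrays. Whether replicates came from separate litters is not stated, so p-values measure the spread between these samples. Having only 3 arrays per genotype limits the precision.

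Each alternative changed 1 choice: scaling (quantile or median), background correction (normexp, offset 50), the filter on dim probes (none, or all 6 arrays), the source (series table), the variance model (intensity trend, robust), a block (slide, scan day, labelling batch or replicate number), a 2-fold threshold, averaging the probes of a gene, or 1 array left out.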

Additional observations from a re-analysis of the deposited data

How the results depend on the processing

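Of 316 values of the 18 tested member probes under the alternatives, 20 changed sign, and none of those passed under either setting. In limma, 3 factors and 3 probes changed. With no filter on dim probes 1 of each did (Myocd), and with the scan day, the labelling batch or the replicate block 0 of each did, where 2, 3 and 6 factors had an unadjusted p below 0.05. Leaving out 1 array gave 0 to 3 factors (6 at an unadjusted p below 0.05 each time) and 0 to 4 probes. Median scaling, slide as a random block and the mean of a gene's probes gave 2 factors each: Hand1 was lost under median scaling (adjusted p = 0.0557) and slide (0.0556), and Tbx5 under the mean of its probes (-0.70, adjusted p = 0.0775). Whether the replicate numbers pair the arrays could not be decided with 3 arrays per genotype, where a replicate block costs precision either way. Deviations of same-numbered arrays correlated at -0.13, 0.08 and 0.09, not every array went best with its own number, and the replicate block moved the count over all genes to 572 from 1587. That count was 650 without the filter, 122 with the labelling batch, 0 with the scan day (1795 at an unadjusted p below 0.05) and 306 to 2598 with 1 array left out. Signs turned for Nkx2-5 under median scaling (-0.072), normexp (-0.047) and day or batch (-0.11), and over -0.059 to 0.13 with 1 array left out. They turned for Tbx5 probe 2 with day or batch (0.011) and over -0.088 to 0.060 with 1 array left out, for Tbx20 with the mean of its probes (0.11), and for Tbx20 probe 2 over -0.051 to 0.18. They also turned for Gata6 probe 2 under median scaling (-0.046) and normexp (-0.016) and over -0.10 to 0.23, for Gata6 probe 3 under normexp (-0.070), and for Isl1 with day or batch (0.12). The 8 other regulators that passed were 1 without the filter or with the batch or replicate block, 5 with slide, a 2-fold threshold or the mean of probes, and 0 with the day (4 at an unadjusted p below 0.05). The 5 signals were 2 with the replicate block. The cause was not tested. Dim probes such as Tbx5 probe 2 limit what small differences can show.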

Other observations

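A pair of member probes was too dim for any comparison. Tbx20 probe 4, at chr9:24632567-24632626, was well above background on 1 array, Brg1fl/fl 1, where it read 16.1 units, against 4.93 to 8.75 units in Brg1d/d and 5.92 and 7.79 units in the other Brg1fl/fl arrays. Mef2c probe 2, at chr13:80652493-80652552, was not well above background on any array and read 3.32 to 15.1 units in Brg1d/d and 1.72 to 3.18 units in Brg1fl/fl.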
